A study of Mus musculus with 2 samples.

Results

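The interferon-inducible GTPases examined here are 10 mouse genes, namely Gbp2, Gbp3, Gbp5, Gbp6 and Gbp7 of the guanylate-binding protein (GBP) family and Irgm1, Irgm2, Igtp, Iigp1 and Tgtp1 of the immunity-related GTPase (IRG) family. They were picked by gene symbol, with no threshold on their values, and all 10 were found among the 37451 genes of the deposited table. The table held 1 RNA-seq library for each of 2 genotypes of bone marrow-derived macrophages (BMDMs), which are primary macrophages grown from marrow with CSF-1 from L929 cells. The WT library came from C57BL/6 littermates, and the library called ΔM came from C57BL/6 TTP fl/fl LysMCre mice, in which Cre is driven from the lysozyme M (Lyz2) locus and removes tristetraprolin (TTP, gene Zfp36) from myeloid cells. Mice were 7 to 9 weeks old. Both cultures received 100 µM of the uridine analogue 4-thiouridine for 16 h and then the bacterial cell-wall component LPS at 10 ng/ml for 6 h, so neither library is an unstimulated control. The duration is that of the treatment protocol, and the library titles end in LPS7, which the labels do not explain. RNA was depleted of ribosomal RNA before sequencing.

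GBPs and IRGs are cytosolic GTPases whose genes are switched on by interferons. In mouse macrophages they gather on vacuoles that hold bacteria or parasites, where GBPs help to break the vacuole or the microbe and to feed the caspase-11 inflammasome. IRGs fall into effectors, which coat foreign vacuoles, and regulators (Irgm1, Irgm2 and Igtp), which sit on the cell's own membranes and hold the effectors inactive there. TTP is an RNA-binding protein that destabilizes transcripts with AU-rich elements. Comparing the genotypes therefore asks how the level of each transcript in LPS-treated macrophages differs when TTP is missing.

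The family was abundant in both libraries, and 9 of its 10 genes differed by less than 1.5-fold between genotypes. The exception was Iigp1, an IRG effector, which was 1.82-fold higher in ΔM. The unit is FPKM, a count of fragments divided by transcript length and by the size of the library. Levels can thus be set side by side between genes, but ratios between libraries also depend on what else each library holds. Genes averaging at least 1 FPKM summed to 1.84e+06 FPKM in WT against 2.51e+06 in ΔM. The protein-coding ones among them summed to 213751 and 213079 FPKM. With 1 library per genotype there is no replicate error, no test and no p-value, and every difference below is between 2 libraries. The intervals given are approximate 95% intervals for counting error only, built on a depth estimated from the steps between low FPKM values, which was 36700000 fragments in WT and 32500000 in ΔM. They leave out the spread between mice and cultures, which is unknown here.

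Of the 10 members, 1 was at least 1.5-fold higher in ΔM and 0 were at least 1.5-fold lower. Over all 10765 genes whose mean reached 1 FPKM, 11.2% were that much higher and 7.51% that much lower. Over the 8078 of them that code for protein the shares were 4.82% and 5.36%. The count of members past 1.5-fold is thus close to the background. The median log2 ratio of the members, on the log2(FPKM + 1) scale, was 0.16, beside −0.02 over the 3039 protein-coding genes averaging 10 FPKM or more. Over the 8078 protein-coding genes averaging at least 1 FPKM, that background median was −0.001. The members' log2 ratio was above 0 in 8 genes and below 0 in 2, but after scaling both libraries to the housekeeping gene Hprt, which moves every ratio by −0.16, it was above 0 in only 5 and the median was 0.01. Scaled to the protein-coding FPKM sum it was above 0 in 8, and centred on the protein-coding median in 9. Hprt is a single gene, and its own ratio interval was 0.998 to 1.26. The direction of the family as a whole therefore depends on the scaling. The log2 ratio of Iigp1 was 0.67 after the same scaling.

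The targeted gene fitted the labels, with Zfp36 at 65.26 FPKM in WT against 16.71 in ΔM. All 9 macrophage markers in the table averaged at least 1 FPKM, for example Cd68 at 387.55 and 389.58 FPKM, while Lyz2, the locus that carries Cre, was lower in ΔM (2480.86 and 1356.26 FPKM). Of the 9 macrophage markers, 5 had a log2 ratio above 0 and 4 had one below 0. The higher ones included the mannose receptor gene Mrc1, at 5.45 and 11.56 FPKM, and the receptor kinase gene Mertk, at 2.15 and 3.48 FPKM. Mertk was chosen after its values were seen. Of 22 markers of other blood cells, fibroblasts and erythroid cells, 1 reached a mean of 1 FPKM. This was the neutrophil and monocyte gene S100a8, at 50.70 FPKM in WT against 100.02 in ΔM. The summed level of the 5 neutrophil markers was 50.79 and 100.07 FPKM, and S100a9, Ly6g and Elane were listed at 0 in both libraries. The part of this in the GTPase values was not tested. In bulk RNA, fewer cells that express a gene and less RNA per cell cannot be told apart.

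**Figure D1:**
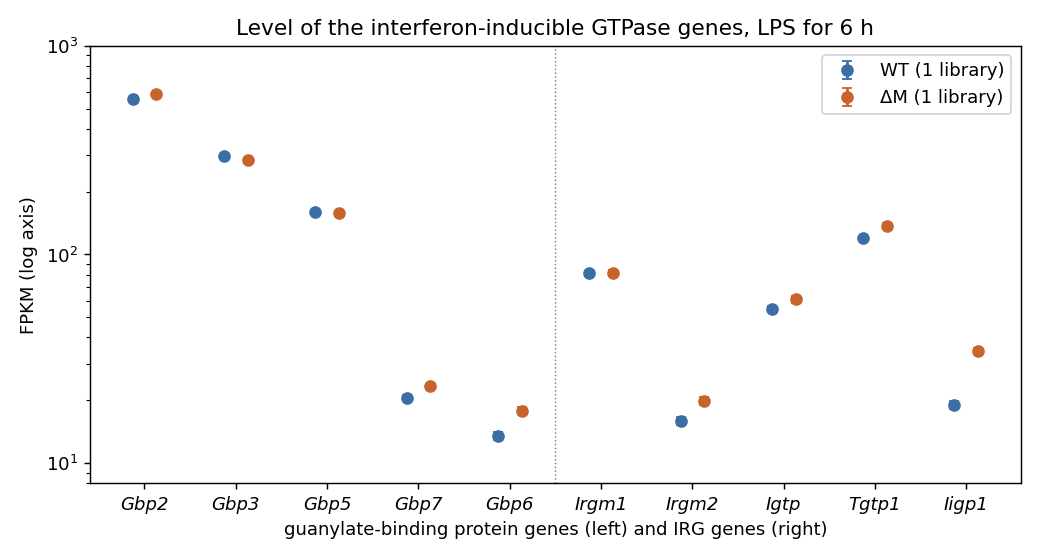
FPKM of the 10 genes on a log axis in the WT and ΔM library, with GBP genes to the left of the dotted line and IRG genes to the right. Bars are approximate 95% counting intervals, mostly hidden by the points. The points of a gene lie farthest apart for Iigp1, at 18.92 FPKM in WT against 34.41 in ΔM.

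The levels of the members spanned 41.2-fold in WT and 33.1-fold in ΔM. Gbp2 alone made up 41.5% of the summed FPKM of the family in WT and 42.0% in ΔM. The order from high to low in WT was Gbp2, Gbp3, Gbp5, Tgtp1, Irgm1, Igtp, Gbp7, Iigp1, Irgm2 and Gbp6. In ΔM the order was the same but for Iigp1, which stood above Gbp7. The places of Tgtp1 and Gbp6 are uncertain, because much of their sequence is shared with other parts of the genome, as described below. Neighbours in this order had counting intervals that did not overlap in either library, but with 1 library each the spread between cultures cannot be set against these gaps. The summed FPKM of the members was 1337.49 in WT and 1406.92 in ΔM, or 1.05 times as much.

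Of the GBP genes, 4 lie together on chromosome 3 (build mm9), in the order Gbp5 (142159864 to 142185308), Gbp7 (142193302 to 142213047), Gbp3 (142223016 to 142236173) and Gbp2 (142283566 to 142300972), all on the plus strand. Gbp6 lies apart from them on the minus strand of chromosome 5, from 105699723 to 105722718. The 5 genes summed to 1046.94 FPKM in WT against 1072.26 in ΔM.

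Gbp2, a GBP with a lipid anchor that is drawn to pathogen vacuoles, had the highest level of the family. It measured 555.32 FPKM in WT against 590.45 in ΔM, a log2 ratio of 0.09 with a ratio interval of 1.05 to 1.08. Gbp3 was the only member whose interval lay below 1. It measured 297.58 FPKM in WT against 282.53 in ΔM, a log2 ratio of −0.07 with a ratio interval of 0.933 to 0.967. Gbp5, a GBP linked to inflammasome assembly and, like Gbp2, a carrier of a lipid anchor, was all but level between the libraries. It measured 160.07 FPKM in WT against 158.14 in ΔM, with a ratio interval of 0.967 to 1.01 that includes 1. In the values as deposited, the 3 most abundant members were also those nearest to level between genotypes, together with Irgm1.

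Gbp7, which lies between Gbp5 and Gbp3, was much lower than either. It measured 20.48 FPKM in WT against 23.29 in ΔM, with a ratio interval of 1.09 to 1.19. Gbp6 was the lowest member of all and the GBP with the largest ratio. It measured 13.49 FPKM in WT against 17.85 in ΔM, a log2 ratio of 0.38 with an interval of the ratio that ended at 1.41. Only uniquely mapped reads were kept upstream, and only 24.6% of the 100-base windows along the exons of Gbp6 occur once in the genome. Its nearest relative, Gbp10, is 98.4% identical to it over the coding sequence and measured 5.66 FPKM in WT against 7.10 in ΔM. The levels of this pair are uncertain, since most of their windows occur more than once in the genome. Windows were counted singly, without the mate of a read pair, so some reads from them may still have been placed.

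All members share the GTPase fold, and the bases that encode the phosphate-binding loop (P-loop) show how they divide. The stretches below run 5′ to 3′ along the coding strand and are taken from the GENCODE M1 transcripts of build NCBIM37 (mm9). Capitals mark the codon of the residue that separates the regulator IRGs, which have methionine there, from the GBPs and effector IRGs, which have lysine. They are shown because the regulator and effector groups are described apart below.
Gbp2: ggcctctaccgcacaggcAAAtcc
Gbp3: ggtttatatcgtacagggAAGtcc
Gbp5: ggtctttatcgcacaggcAAAtcc
Gbp6: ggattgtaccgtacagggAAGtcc
Gbp7: ggactataccgtacgggaAAAtcc
Tgtp1: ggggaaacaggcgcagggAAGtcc
Irgm1: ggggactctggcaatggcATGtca
Irgm2: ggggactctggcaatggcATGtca
Igtp: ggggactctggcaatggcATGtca

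Iigp1 also has a lysine codon there, AAG, as codon 82, and its stretch is not shown. The marked codon is number 89 in Irgm1 and Irgm2 and number 97 in Igtp, and the 24 bases shown are the same in all 3 regulators. Outside this stretch the regulators are less alike, at 73.1% identity between Irgm2 and Igtp over the aligned coding sequence. Irgm2 and Igtp are neighbours on the plus strand of chromosome 11, with Igtp from 58013058 to 58021093 and Irgm2 from 58028530 to 58036282. Irgm1 lies farther off on the minus strand of the same chromosome, from 48675470 to 48685185.

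The regulators summed to 151.65 FPKM in WT against 162.55 in ΔM. Irgm1, the regulator with the highest level, protects the cell's own membranes and is linked to autophagy. It measured 81.10 FPKM in WT against 81.85 in ΔM, with a ratio interval of 0.973 to 1.05 that includes 1. Igtp (also called Irgm3), a regulator found on the endoplasmic reticulum and lipid droplets, was slightly higher in ΔM. It measured 54.70 FPKM in WT against 60.86 in ΔM, a log2 ratio of 0.15 with a ratio interval of 1.06 to 1.17. Irgm2, a regulator found at the Golgi, was the lowest of the 3 and had the highest ratio. It measured 15.85 FPKM in WT against 19.84 in ΔM, a log2 ratio of 0.31 with a ratio interval of 1.18 to 1.33.

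Tgtp1 (Irgb6), an effector that loads early onto parasite vacuoles, had the highest level of the IRG members. It measured 119.98 FPKM in WT against 137.70 in ΔM, a log2 ratio of 0.20 with a ratio interval of 1.11 to 1.19. Tgtp1 lies on the minus strand of chromosome 11 from 48798829 to 48807674. Its exons share 223 bases, or 6.96%, with those of Gm12185 on the same strand. Only 23.1% of its 100-base windows occur once in the genome, and its coding sequence is 99.7% identical to that of Tgtp2, which measured 80.45 FPKM in WT against 92.18 in ΔM. How the reads of this pair divide is therefore uncertain, although both genes had a log2 ratio of about the same size, at 0.20 and 0.19.

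**Figure D2:**
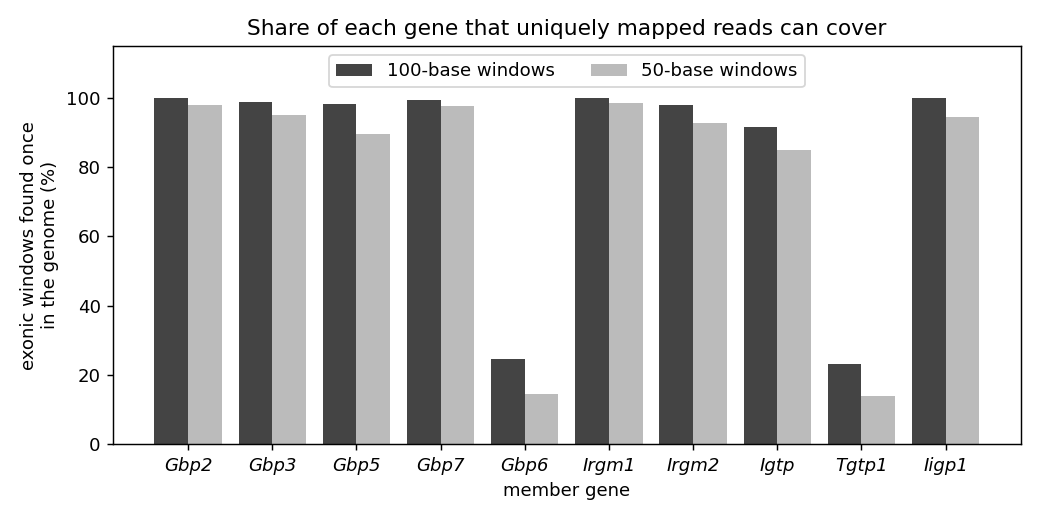
Share of the windows of 100 bases (dark) and 50 bases (light) along the exons of each member that occur once in the mm9 genome, in percent. Gbp6 and Tgtp1 stand at 24.6% and 23.1% for 100 bases, and the other 8 genes lie at 91.5% or above.

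Iigp1 (Irga6), the best-studied IRG effector, polymerizes on parasite vacuoles in its GTP-bound form. It was the only member past 1.5-fold, at 18.92 FPKM in WT against 34.41 in ΔM. These levels correspond to about 1967 and 3168 fragments, and the interval of the ratio was 1.72 to 1.92, above the intervals of all 9 other members. The log2 ratio of 0.83 was exceeded by 45 of the 3039 protein-coding genes averaging 10 FPKM or more, and the central 95% of those genes ended at 0.64. For the 8078 protein-coding genes averaging at least 1 FPKM the central 95% ended at 0.77. All of its 100-base windows occur once in the genome, and its exons overlap no other gene. The other effector in the list, Tgtp1, had a log2 ratio of 0.20.

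Iigp1 lies on the plus strand of chromosome 18 from 60535683 to 60552281, beside several of its own relatives. The genes of this block were low in both libraries. Gm4951, the nearest relative by sequence with 88.0% identity in the aligned coding bases, measured 2.29 FPKM in WT against 3.66 in ΔM, a ratio interval of 1.33 to 1.92. F830016B08Rik, another IRG gene, was at 0.09 and 0.39 FPKM. The pseudogene Gm5970 was at 1.33 and 2.25 FPKM, and the genes Gm4841 and BC023105 were at 0.68 and 1.10 FPKM and at 0.39 and 0.68 FPKM. These last 3 were chosen after their values were seen, as were the neighbours that follow. Each of these 5 genes was higher in ΔM, and each ratio interval lay above 1. The pseudogene Gm6960, which lies among them between Iigp1 and BC023105, was lower at 0.85 and 0.28 FPKM, with an interval that includes 1.

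Genes farther along were mixed. Synpo, an actin-associated protein, was higher in ΔM at 0.06 and 0.99 FPKM. Dctn4, a dynactin subunit, measured 11.75 FPKM in WT against 11.15 in ΔM. Cd74, the invariant chain of MHC class II, was at 239.83 and 245.56 FPKM, with a ratio interval of 0.995 to 1.05. Rbm22, a splicing factor, was lower in ΔM at 19.67 and 16.82 FPKM, and Tcof1, a nucleolar protein, was higher at 21.54 and 26.60 FPKM. A higher level in ΔM was therefore found in Iigp1, Gm4951 and F830016B08Rik, but also in several genes farther along.

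**Figure D3:**
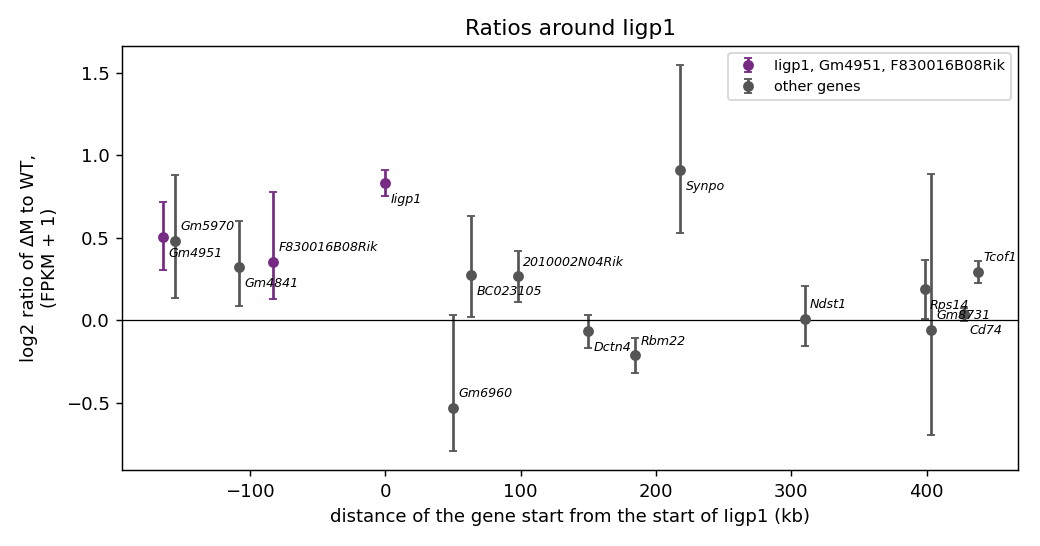
Log2 ratio of ΔM to WT on the log2(FPKM + 1) scale for genes around Iigp1 averaging at least 0.2 FPKM, against the distance of each gene's start from that of Iigp1 in kb. Bars are approximate 95% counting intervals. The genes listed as IRG, namely Iigp1, Gm4951 and F830016B08Rik (purple), lie above 0. So do Gm5970 and Gm4841 before Iigp1 and several genes after it. Whether Gm5970 and Gm4841 belong to the IRG family was not assessed.

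The rest of the GTPase family was described by the same measures, and 0 of its measured genes passed 1.5-fold in either direction on the log2(FPKM + 1) scale. Without the added 1, the low gene Gm4951 had a ratio of 1.60. The 6 other GBP genes had a median log2 ratio of 0.13, and the 9 other IRG genes averaging at least 1 FPKM had a median of 0.15. Under the Hprt scaling both medians turned to −0.01. Gbp9 and Gbp4 were the most abundant of the other GBPs. Gbp9 measured 23.39 FPKM in WT against 25.68 in ΔM, and Gbp4 was at 11.61 and 14.08 FPKM. Gbp1, the GBP most like Gbp2 in coding sequence at 82.5% identity, was at 2.35 and 2.67 FPKM, while Gbp8 was at 2.70 and 2.72 FPKM and Gbp11 at 1.48 and 1.40 FPKM.

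Among the other IRG genes, Ifi47 (Irgd) reached 140.32 FPKM in WT against 153.05 in ΔM. That was above the listed level of every IRG member, though the level of Tgtp1 is uncertain as given above. Gm12250, the gene of Irgb10, which acts on bacterial membranes, was at 28.65 and 31.81 FPKM. Gm12185 was at 25.65 and 31.33 FPKM, and Gm5431 at 14.31 and 14.94 FPKM. The pair 9930111J21Rik1 and 9930111J21Rik2 went in opposite directions, the first at 15.70 and 21.15 FPKM and the second at 11.68 and 10.53 FPKM, and only 31.3% and 39.3% of their windows occur once in the genome. Gm17334 was at 2.51 and 2.39 FPKM, and Irgc1 and Irgq were below 1 FPKM in both libraries.

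The interferon-inducible GTPases of other classes gave a median log2 ratio of −0.07 over 4 genes, or −0.21 under the Hprt scaling. Mx1, an antiviral dynamin-like GTPase, measured 373.22 FPKM in WT against 392.34 in ΔM, and its relative Mx2 was at 39.36 and 38.08 FPKM. Gvin1, a giant GTPase, was at 6.19 and 5.61 FPKM, though only 2.31% of its windows occur once in the genome, and Gm4070 was at 4.40 and 4.07 FPKM. The other giant GTPase genes Gm8979 and Gm1966 were below 1 FPKM.

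**Figure D4:**
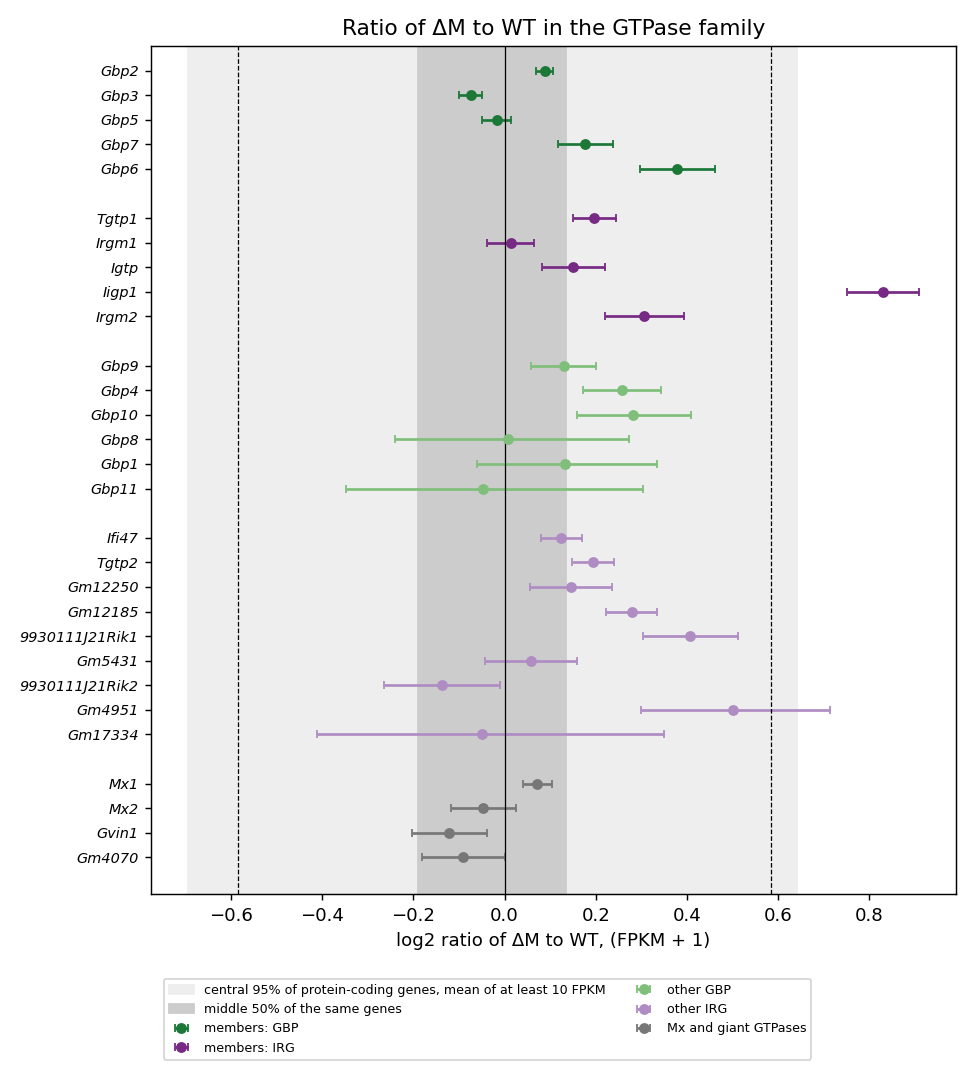
Log2 ratio of ΔM to WT on the log2(FPKM + 1) scale for the members (dark green and dark purple), the other GBP and IRG genes, and the Mx and giant GTPases averaging at least 1 FPKM, each with its approximate 95% counting interval. The grey bands hold the middle 50% and the central 95% of the 3039 protein-coding genes averaging 10 FPKM or more, dashed lines mark 1.5-fold, and Iigp1 at 0.83 is the only point beyond them.

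The promoters of the members were searched for the sequences through which interferons act. Type I interferons act through the interferon-stimulated response element (ISRE), and interferon γ acts through the gamma-activated site (GAS). Of the 10 members, 8 had a RefSeq promoter window of 250 bases before to 50 bases after the start, on build GRCm38.p6, which is a later build than that of the expression table. Gbp6 and Iigp1 had none. The ISRE core searched was GAAA, any pair of bases and GAAA again, the GAS was TTCNNNGAA, and both strands were read. Gbp3 had more than one window, and its core was in the first.

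An ISRE core was found in all 8 of these members, against 3.44% of the 32851 promoter windows. A GAS was found in 5 of the 8, against 8.30% of all windows, and the same 5 held both motifs, against 0.454%. The stretches around the ISRE cores are shown because all 8 members with a window hold one. For Gbp6 and Iigp1 this is unknown. The core is not particular to members, since the related genes Gbp1, Tgtp2, Gm12250 and Gm12185 also had one, while Ifi47 and Gm5431 did not. Capitals mark the motifs, which can overlap, and each stretch runs 5′ to 3′ toward the gene.
Gbp2, chr3:142620596-142620621 (+): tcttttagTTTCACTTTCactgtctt
Gbp3, chr3:142559991-142560022 (+): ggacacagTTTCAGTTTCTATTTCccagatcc
Gbp5, chr3:142496761-142496786 (+): ttgtgtagTTTCAATTTCagtttaga
Gbp7, chr3:142530241-142530300 (+): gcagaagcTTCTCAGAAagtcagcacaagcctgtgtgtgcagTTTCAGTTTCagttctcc
Irgm1, chr11:48871427-48871458 (-): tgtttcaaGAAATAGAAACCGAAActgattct
Irgm2, chr11:58214894-58214930 (+): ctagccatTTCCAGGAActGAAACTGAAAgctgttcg
Igtp, chr11:58199503-58199539 (+): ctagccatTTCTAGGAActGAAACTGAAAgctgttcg
Tgtp1, chr11:48992306-48992342 (-): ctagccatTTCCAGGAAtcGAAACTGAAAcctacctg

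Irgm2, Igtp and Tgtp1 carried nearly the same block, in which the GAS began 11 bases before the ISRE core. The block is not particular to members, since the related genes Tgtp2 and Gm12185 had the same spacing. The block lay at different distances from the start, with the ISRE core beginning at position −34 in Igtp, −64 in Irgm2 and −77 in Tgtp1, counted in bases from the start. In the GBP genes the ISRE core stood in the opposite orientation, as the letters show, and in Gbp3 and Irgm1 a pair of overlapping cores was found. Gbp5 had its ISRE core farthest from the start, at position −165, with a GAS at −52. The 3 members without a GAS in the window, Gbp2, Gbp3 and Irgm1, had log2 ratios of −0.07 to 0.09, and the 5 with one had −0.02 to 0.31, so the ranges overlap. A match of letters is a description of the window and says nothing of binding in these cells.

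**Figure D5:**
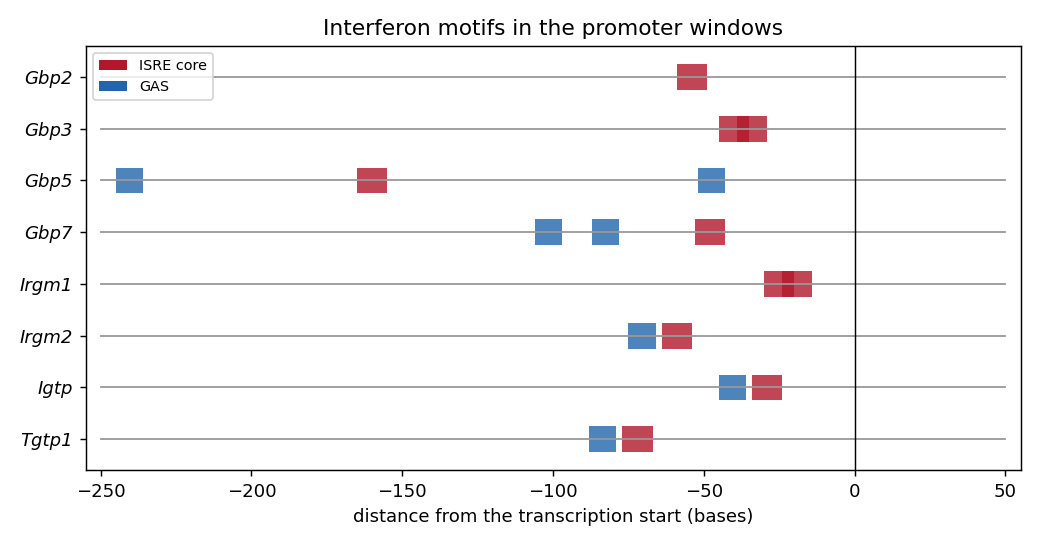
Position of each ISRE core (red) and GAS (blue) in the promoter windows of 8 members, in bases from the transcription start at 0. The ISRE cores begin at −77 or nearer to the start in all members but Gbp5, and Irgm2, Igtp and Tgtp1 have a GAS just upstream of the core.

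TTP recognizes UAUUUAU in 3′ untranslated regions, and the longest annotated one of each member was searched for that heptamer (TATTTAT as DNA). Of the 10 members, 1 contained it, and 23.9% of 19953 genes with such a region did. The member was Gbp6, whose region is 2398 bases long, and 41.1% of genes with a region of like length contained the heptamer. The site is shown with 10 bases on each side, the heptamer in capitals.
Gbp6: acatcaaattTATTTATttgcaaagta

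Gbp6 was 1.32-fold higher in ΔM, with the limit from its close relative Gbp10 given above. Iigp1, the member with the largest ratio, had no such heptamer in its 1574-base region. The longest region, that of Gbp7 at 3509 bases, had no heptamer either. The shorter AU-rich pentamer ATTTA occurred 5 times in the region of Iigp1, 6 times in Gbp7 and 8 times in Gbp6. It was rarer in the other members and occurred 0 times in Gbp2, Irgm1 and Igtp. Its share over all genes was not computed.

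The supplementary site table of the study names a TTP binding sequence in an intron of Gbp7 for the LPS duration that the protocol gives. Its list for an earlier time point also holds intronic sequences of Gbp7, Igtp and Gbp5, which are not shown because no library here is of that time. Sites on the chromosome of Iigp1 were left out of this look-up, so it says nothing of Iigp1. The letters of the Gbp7 sequence were looked up in NCBIM37 and matched the plus strand within intron 1 of the gene. The sequence is shown in capitals with 10 bases on each side, because TTP is the protein removed in ΔM.
Gbp7, chr3:142194977-142194985 (+): agtaggttttGTTTTTTATttatttattt

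Gbp7 had a log2 ratio of 0.18, close to the family median of 0.16. FPKM over exons does not measure introns, so the table holds no value for the stretch itself.

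Most genes upstream of the family differed by less than 1.5-fold between the libraries. Of the 9 interferon, receptor and kinase genes, 7 had a mean of at least 1 FPKM, and 0 of them passed 1.5-fold, with a median log2 ratio of −0.00, or −0.16 under the Hprt scaling. Their log2 ratios ran from −0.41 to 0.02. The lowest was that of the kinase gene Jak2, at 50.11 and 37.36 FPKM, chosen after its values were seen. The interferon receptor chains Ifnar1 and Ifnar2 were at 76.52 and 107.96 FPKM in WT and at 76.34 and 92.88 FPKM in ΔM, and Ifngr2 was at 86.73 and 88.20 FPKM. The ligand genes were scarcely measured at this time. Ifnb1 was listed at 0 in WT and at 0.48 FPKM in ΔM, and Ifng at 0 and 0.09 FPKM, both chosen after their values were seen.

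Of the 8 interferon transcription factor genes in the table, 0 were at least 1.5-fold higher and 1 was that much lower, with a median log2 ratio of 0.02 that turned to −0.14 under the Hprt scaling. The log2 ratios ran from −0.59 to 0.38. The highest was that of Irf2, at 11.21 and 14.90 FPKM, also chosen after its values were seen. Irf7, an amplifier of interferon responses, measured 988.91 FPKM in WT against 994.42 in ΔM. Irf1, another activator of interferon-inducible genes, was at 106.74 and 109.50 FPKM. The lower gene was Batf, an AP-1 factor, at 21.73 and 14.12 FPKM. Over protein-coding genes averaging at least 1 FPKM, 4.82% were at least 1.5-fold higher and 5.36% that much lower. Of the 6 inhibitors of interferon signalling, 0 were that much higher and 1 was that much lower. That gene was the phosphatase Ptpn6, at 678.01 and 409.63 FPKM, while Usp18 was at 304.69 and 376.18 FPKM and Socs3 at 114.47 and 137.06 FPKM.

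GBPs and IRGs work with the autophagy conjugation system, with ubiquitin ligases and with inflammasomes. Of 11 measured autophagy genes 0 passed 1.5-fold, with a median log2 ratio of −0.07, or −0.19 under the Hprt scaling. Sqstm1, the autophagy receptor p62, measured 271.82 FPKM in WT against 224.04 in ΔM, Becn1 at 97.88 and 69.38 FPKM, and Gabarap at 92.67 and 101.65 FPKM. Of 4 measured ubiquitin and receptor genes 0 passed 1.5-fold, with a median of −0.10, or −0.26 under the Hprt scaling. Tax1bp1 was at 222.84 and 206.75 FPKM, Trim21 at 23.41 and 18.84 FPKM, and Optn at 10.64 and 9.85 FPKM.

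The inflammasome list held 8 genes, of which 0 were at least 1.5-fold higher and 2 that much lower. Over protein-coding genes averaging at least 1 FPKM the shares were 4.82% and 5.36%, and a list of 8 is too short to compare with them. The median log2 ratio was −0.12, or −0.28 under the Hprt scaling. Those 2 were the sensor Nlrp3, at 38.51 FPKM in WT against 23.67 in ΔM, and the cytokine Il18, at 11.17 and 7.11 FPKM. Casp4, which is caspase-11 in the mouse and acts downstream of GBPs, was at 140.45 and 113.84 FPKM. Casp1 was at 124.79 and 134.98 FPKM, and Il1b at 874.57 and 740.58 FPKM.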

How the data were processed

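RNA of WT and ΔM BMDMs was sequenced with 1 library per genotype. Per the study's methods and the labels, the authors aligned reads to mm9, kept unique reads and computed with Cufflinks the deposited FPKM per Ensembl gene. A single gene had no number in ΔM and was left out. Ratios were log2(FPKM + 1) in ΔM minus WT, and lists and backgrounds used genes averaging 1 FPKM or more. The log2(FPKM + 1) scale understates differences of low genes. Members and gene lists were chosen with earlier results of these data known. All members, every other family gene, the 3 most abundant genes of each list and genes past 1.5-fold were named, except 1 gene that is not reported here. No gene was named for a like pattern, since 2 libraries cannot rank one.

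Depth was estimated from the steps of low FPKM values. At the estimate, 94.1% of low values in WT and 93.7% in ΔM fell on whole fragments, and the estimator was checked on simulated data. Intervals were exact Poisson and binomial intervals at 95%. Coding sequences, exonic windows and untranslated regions came from NCBIM37 with GENCODE M1. Alternative pseudocounts, scalings, filters and folds were tried. Python 3.11.15 was used with numpy 2.4.6, pandas 2.3.3, scipy 1.17.1, numba 0.67.0, matplotlib 3.10.9 and Biopython 1.88.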

Additional observations from a re-analysis of the deposited data

How the results depend on the processing

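No paired analysis was possible because each genotype had 1 library and leaving either out would leave nothing to compare. Scaling to Hprt moved the members' median log2 ratio to 0.0059, and it lay between 0.12 and 0.19 under the other settings, including those without Tgtp1, without Iigp1 and without Gbp6 and Tgtp1; the last pair of settings was chosen after seeing the data. The ratio of Iigp1 stayed between 0.67 and 0.86 on the log2 scale. With a 2-fold limit 0 members were called higher, and with a lower limit than 1.5-fold 2 were, Gbp6 and Iigp1. The number of members whose counting interval left out 1 was 8, also at a depth 20% lower. Over all genes, the 1202 and 808 genes called at least 1.5-fold higher and lower became 612 and 278 with a mean of at least 10 FPKM, and 389 and 433 among protein-coding genes. At 2-fold, the 613 and 389 became 306 and 130, and 96 and 107. The smaller sets hold fewer genes by construction. The spread between cultures is unknown, so no difference here has a replicate check.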
